A study of Homo sapiens with 3 samples.

Results

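A set of 10 genes of lipid storage and lipid use was followed in A375, an established human melanoma cell line: PLIN2, PLIN4, CIDEC, LIPE, FABP4, CD36, ANGPTL4, CPT1A, ACADVL and PDK4. They were picked by gene symbol as lipid droplet and PPAR-responsive genes, and all 10 are among the 58037 genes counted. The cells had spent 24 h in serum-free DMEM (control), in medium conditioned by young adipocytes (YA-A375) or in medium conditioned by old adipocytes (OA-A375), with 1 library in each group and no other treatment. Per the study's methods, the adipocytes were human subcutaneous preadipocytes differentiated in culture with insulin, dexamethasone, indomethacin and IBMX, and their secretome was collected in serum-free DMEM. How many donors contributed to each secretome is not given in the sources used here. Because no group has a second library, no difference below has a replicate check and no p-value was computed. Every interval is a 95% counting interval, which covers counting error only and compares libraries, not conditions.

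Cells store surplus fatty acids as triglyceride in lipid droplets, whose surface is coated by perilipins such as PLIN2 and PLIN4 and by CIDE proteins such as CIDEC, which helps droplets to fuse and enlarge. Lipases release the fatty acids again, and the mitochondrion admits them through CPT1A and shortens them by beta-oxidation, which ACADVL begins for very long chains. The PPAR nuclear receptors bind fatty acids and their derivatives and, paired with RXR, switch on many of these genes, including PLIN2, ANGPTL4, CPT1A and PDK4. In adipocytes CIDEC, LIPE, FABP4 and CD36 are abundant, whereas melanoma cells are not storage cells.

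Counts were scaled by median-of-ratios size factors, and levels of different genes were compared per kb of exon. ACADVL (1599 per kb in control) and PLIN2 (1532 per kb) stood far above the rest, and CPT1A (318 per kb) and PDK4 (198 per kb) came next. PLIN4 (41.2 per kb), ANGPTL4 (29.6 per kb), LIPE (14.3 per kb), FABP4 (10.8 per kb) and CIDEC (2.94 per kb) were low, and CD36 (0.0866 per kb) was close to nothing. In control the level of PLIN2 was above that of 96.9% of the 14413 genes whose mean over the libraries reached 20 normalised counts, the minimum used here for a fold change, and the level of LIPE was above that of 12.6% of them. ANGPTL4 lay below PLIN4 in control and above it in YA-A375 (102 against 84.2 per kb) and in OA-A375 (82.8 against 55.4 per kb). CIDEC lay below FABP4 in control and above it in both secretomes, but on few counts (6 against 16 in control, 31 against 15 in YA and 36 against 2 in OA).

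Of the 10 genes, 8 reached that minimum. FABP4, with a mean of 10.5 normalised counts, and CD36, with 0.944, did not, and have too few counts for a fold change. FABP4 is given as counts with wide ratios that were not called, and CD36 as counts alone. CIDEC reached the minimum through the libraries with secretome alone, so that its presence among the 8 is tied to its difference from control, and counts of the 8 genes are a description of these libraries rather than support for a shared response.

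**Figure D1:**
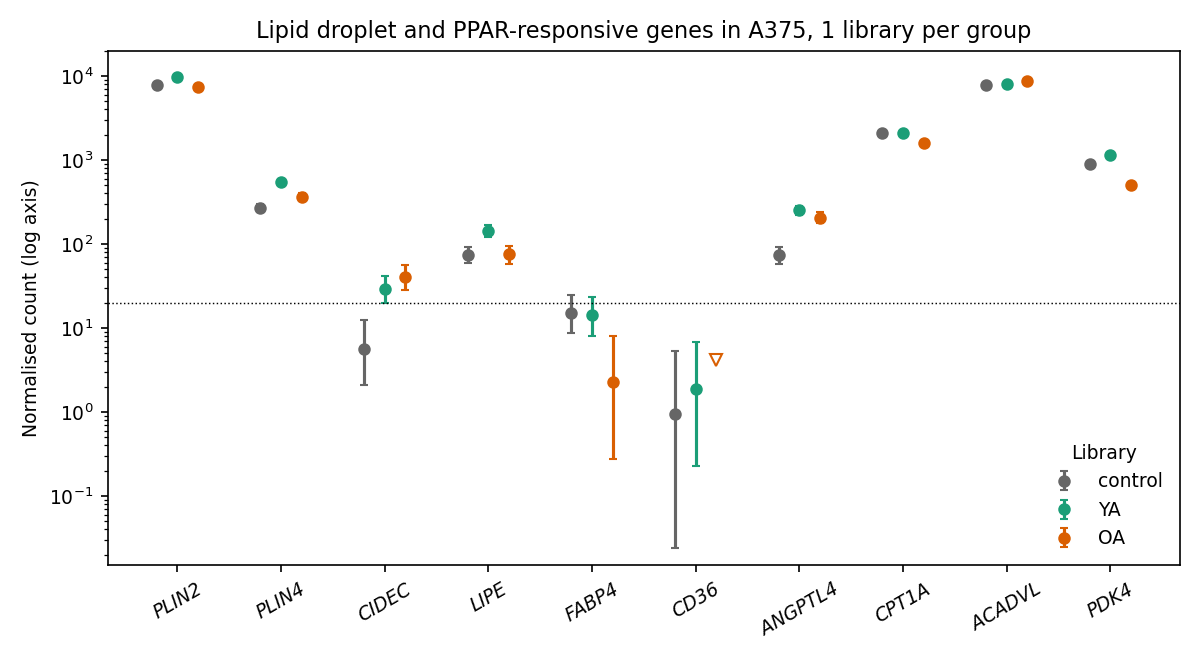
Normalised count of each of the 10 genes (vertical log axis) in the control, YA and OA libraries (1 point each), with bars for the exact Poisson 95% interval of the count. The dotted line marks the minimum mean of 20, and the open triangle the upper end of that interval for CD36 at 0 counts in OA. The points for PLIN4, ANGPTL4 and CIDEC lie above control in both secretomes, as do those for ACADVL by less than 1.2-fold. PDK4 lies above control in YA and below it in OA.

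The start regions of 4 of the genes are shown. These 4 differed most between libraries among the genes with at least 78 counts in each, which is the control count of ANGPTL4. LIPE, with 67 counts in OA, fell below that number although its ratio of YA to control was 1.94. PLIN2 was close to CPT1A, with ratios of YA to OA of 1.33 and 1.31. Each line gives the 250 bases before the RefSeq start on GRCh38.p14, 5′ to 3′ on the gene's strand. Capitals mark every match, on either strand, to AGGTCA (the half-site that nuclear receptors bind), the DR1 element that PPAR and RXR bind together (a pair of those half-sites in the same direction with 1 base between them), CACGTG (the E-box), ACGTG (the hypoxia core, which lies inside every E-box), the glucocorticoid element (AGAACA and its inverted repeat with 3 bases between them) and TATAAA (the TATA box). PLIN2 lies on chromosome 9 (chr9:19127493-19127742, minus strand), PLIN4 and ANGPTL4 on chromosome 19 (chr19:4518487-4518736, minus strand, and chr19:8363905-8364154, plus strand) and PDK4 on chromosome 7 (chr7:95596517-95596766, minus strand).
PLIN2: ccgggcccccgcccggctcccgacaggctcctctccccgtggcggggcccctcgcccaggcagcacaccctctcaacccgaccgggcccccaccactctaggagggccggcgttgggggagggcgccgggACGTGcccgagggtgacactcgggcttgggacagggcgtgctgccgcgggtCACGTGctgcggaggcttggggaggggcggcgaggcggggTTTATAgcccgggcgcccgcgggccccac
PLIN4: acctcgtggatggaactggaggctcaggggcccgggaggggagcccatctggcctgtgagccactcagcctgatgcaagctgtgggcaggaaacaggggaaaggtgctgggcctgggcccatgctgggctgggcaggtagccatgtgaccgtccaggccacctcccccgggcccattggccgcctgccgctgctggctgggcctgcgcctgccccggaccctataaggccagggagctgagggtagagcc
ANGPTL4: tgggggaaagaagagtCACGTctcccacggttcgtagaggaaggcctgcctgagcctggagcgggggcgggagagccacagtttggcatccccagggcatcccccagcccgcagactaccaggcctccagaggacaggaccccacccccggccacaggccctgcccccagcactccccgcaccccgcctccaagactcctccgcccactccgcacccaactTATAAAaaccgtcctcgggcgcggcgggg
PDK4: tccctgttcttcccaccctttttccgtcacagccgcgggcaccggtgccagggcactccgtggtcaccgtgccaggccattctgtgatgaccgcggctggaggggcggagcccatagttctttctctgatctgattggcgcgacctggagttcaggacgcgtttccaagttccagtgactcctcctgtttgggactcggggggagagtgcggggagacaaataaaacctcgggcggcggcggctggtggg

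In these windows PLIN2 had an E-box from 69 to 64 bases before its start, a second ACGTG from 120 to 116 and a TATA box on the opposite strand from 29 to 24. ANGPTL4 had an ACGTG on the opposite strand from 234 to 230 and a TATA box from 29 to 24. PLIN4 and PDK4 had no match. Among 35116 windows of this length before RefSeq starts, 6.34% held the E-box, 18.5% ACGTG, 10.7% TATAAA, 12.1% AGGTCA, 0.0171% the DR1 letters and 0.00285% the glucocorticoid letters. None of the 17 windows of the 9 genes searched, which excluded FABP4, held AGGTCA, the DR1 or the glucocorticoid letters, which says only that these letters are not in these windows.

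The first comparison asked how these genes stood in YA-A375 against control. Of the 8, 6 were at least 1.2-fold higher, namely PLIN2, PLIN4, CIDEC, LIPE, ANGPTL4 and PDK4, and 0 were at least 1.2-fold lower. That fold was the cutoff of the study, read as linear, and 17.4% of all genes tested were as much higher and 16.4% as much lower. For 5 of the 6, all but PDK4, the interval lay wholly beyond 1.2-fold, as it did for 6.03% of all genes in the higher and 4.44% in the lower direction. At 2-fold, PLIN4, CIDEC and ANGPTL4 remained among the higher genes and 0 were lower, beside 2.15% and 0.971% of all genes. In OA-A375 against control 3 of the 8, PLIN4, CIDEC and ANGPTL4, were higher and 2, CPT1A and PDK4, were lower, where 21.1% of all genes were higher and 21.5% lower. The interval lay wholly beyond 1.2-fold for 2 of these higher genes, CIDEC and ANGPTL4, and for both lower ones, beside 9.04% and 9.08% of all genes. At 2-fold CIDEC and ANGPTL4 were higher and 0 were lower, beside 2.86% and 3.71% of all genes. Between the secretomes 6 of the 8 were higher in YA-A375 than in OA-A375 (background 23.0%) and 1, CIDEC, was lower (background 21.5%), with an interval wholly beyond 1.2-fold for 5 of the 6, all but ANGPTL4, and not for CIDEC. The backgrounds for that stricter reading were 10.02% higher and 9.03% lower. At 2-fold PDK4 alone was higher and 0 were lower, beside 4.43% and 3.04% of all genes. CIDEC reached the minimum through the secretome libraries alone, so its place among the genes higher than control is tied to that difference. Without CIDEC, the genes higher at 2-fold were PLIN4 and ANGPTL4 in YA-A375 and ANGPTL4 alone in OA-A375. YA and OA were set against the same control library, so the first 2 comparisons are not independent.

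**Figure D2:**
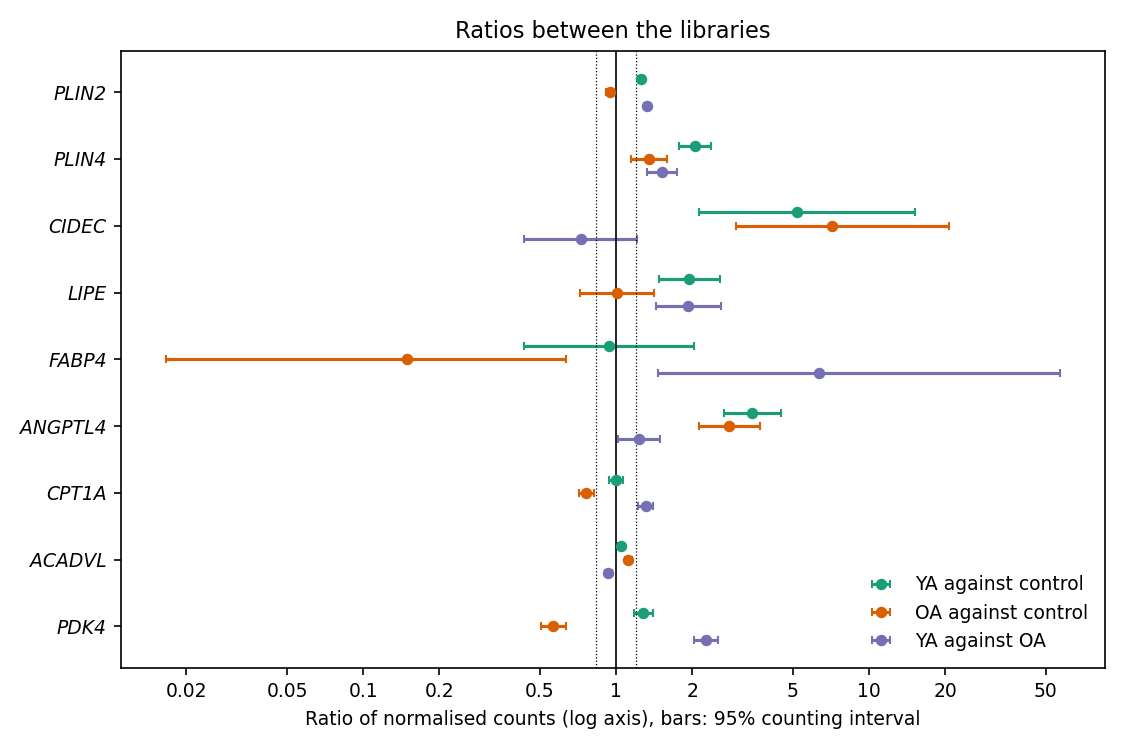
Ratio of normalised counts (horizontal log axis) for the 9 genes with a ratio, in YA against control, OA against control and YA against OA, with bars for the 95% Clopper-Pearson interval from the reads of both libraries. The solid line marks a ratio of 1 and the dotted lines 1.2-fold either way. CPT1A and PDK4 lie left of the lines in OA against control. The FABP4 and CIDEC bars are the widest, and FABP4 has too few counts for a fold change.

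Among the droplet coat genes, PLIN2 (ENSG00000147872.9; GRCh38 chromosome 9, 19108375 to 19149290) is the main droplet coat protein of cells that are not adipocytes. It had 8271 (control), 10315 (YA) and 6553 (OA) counts, or 7794, 9749 and 7356 normalised counts. YA-A375 was thus the highest library and OA-A375 the lowest, with ratios to control of 1.25 for YA (interval 1.22 to 1.29) and 0.944 for OA (0.914 to 0.975). Its ratio between YA and OA was 1.33 (1.28 to 1.37). PLIN3, which is widely expressed and coats nascent droplets, varied less, with 2169, 2354 and 2058 counts in control, YA and OA and ratios to control of 1.09 and 1.13. Within a library, where no scaling between libraries enters, PLIN2 took 79.2% of the reads of the pair for control (95% Wilson interval 78.4 to 80.0), 81.4% for YA (80.7 to 82.1) and 76.1% for OA (75.2 to 77.0).

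PLIN4 (ENSG00000167676.4; chromosome 19, 4502180 to 4518465), a perilipin with a long repeat stretch that binds droplet surfaces, had 284 (control), 579 (YA) and 321 (OA) counts. Control was the lowest and YA the highest library. The ratio to control was 2.04 for YA (1.77 to 2.37) and 1.35 for OA (1.14 to 1.59), and the ratio of YA to OA was 1.52 (1.32 to 1.75). Set against PLIN2 reads of the same library, PLIN4 made up 3.32% of the pair for control (2.96 to 3.72), 5.31% for YA (4.91 to 5.75) and 4.67% for OA (4.20 to 5.19), so that the shares in both secretomes lay above control and their intervals overlapped each other.

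CIDEC (ENSG00000187288.10; chromosome 3, 9866711 to 9880254) was counted 6 times in control, 31 times in YA and 36 times in OA. Both secretome libraries were above control, and the reads did not separate YA from OA. The ratio to control was 5.18 in YA and 7.15 in OA, with wide intervals of 2.13 to 15.2 and 2.98 to 20.8, and the ratio of YA to OA was 0.725 (0.434 to 1.21). The gene has a transcribed relative, CIDECP, with 94, 121 and 116 counts in control, YA and OA. Only 12 of the 2013 distinct 50-base stretches of CIDEC transcripts occur in CIDECP transcripts. Reads of both genes were also summed, a step added after the values had been seen. The log2 fold against control was then 0.60 rather than 2.19 in YA, and 0.85 rather than 2.64 in OA. CIDECP held 94 of the 100 summed reads in control, so the sum mostly follows CIDECP. It cannot tell whether reads were assigned to the wrong gene. Of the remaining coat genes, PLIN1, the perilipin of adipocytes, had 2, 5 and 2 counts, PLIN5, the perilipin of oxidative tissues, had 3, 4 and 1, and CIDEA had 0 in every library. CIDEB was also listed at 0, and all of its exon bases overlap exons of other genes.

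LIPE (ENSG00000079435.9; chromosome 19, 42401507 to 42427426) encodes hormone-sensitive lipase, which removes the second fatty acid from a stored triglyceride. It had 79 (control), 153 (YA) and 67 (OA) counts. YA stood alone, with a ratio to control of 1.94 (1.47 to 2.58) and to OA of 1.92 (1.43 to 2.60), while OA and control did not differ beyond counting error (1.01, 0.719 to 1.42). PNPLA2, the lipase that removes the first fatty acid, had 1268, 1242 and 1065 counts and ratios to control of 0.982 and 1.00 in YA and OA. LIPE reads made up 5.86% of the reads of this pair for control (4.73 to 7.25), 11.0% for YA (9.43 to 12.7) and 5.92% for OA (4.69 to 7.45). The antisense gene LIPE-AS1 covers 9.60% of the exon bases of LIPE, and since the use of strand in counting is not stated, reads of both genes there cannot be told apart. ABHD5, the activator of PNPLA2, had 325, 315 and 326 counts, and G0S2, its inhibitor, had 4, 1 and 2.

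FABP4 (ENSG00000170323.8; chromosome 8, 81478419 to 81483263) and CD36 (ENSG00000135218.17; chromosome 7, 80369575 to 80679277) bind fatty acids inside the cell and at its surface. FABP4 had 16 (control), 15 (YA) and 2 (OA) counts. Control and YA could not be separated (ratio 0.940, 0.433 to 2.03). With 2 counts in OA no fold change was called, and the ratio of OA to control was 0.149, with an interval from 0.0166 to 0.633. This interval spans more than an order of magnitude, so the size of the difference is poorly fixed. For CD36 the counts were 1, 2 and 0, from which no ratio was formed, since a count of 0 in OA still allows 3 counts, or 0.166 per 1000000 counts. Of other fatty acid binding proteins, FABP5 had 406, 291 and 419 counts and FABP7 had 203, 145 and 173, both lowest in YA. FABP6 had 81, 95 and 68 counts, and FABP3 had 25, 35 and 23. FABP4 reads were 2.46% of the reads of FABP3, FABP4, FABP5 and FABP7 for control (1.52 to 3.96), 3.09% for YA (1.88 to 5.03) and 0.324% for OA (0.0889 to 1.17).

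ANGPTL4 (ENSG00000167772.11; chromosome 19, 8363289 to 8374373) is secreted and inhibits lipoprotein lipase, the enzyme encoded by LPL that frees fatty acids from lipoproteins. It had 78 (control), 267 (YA) and 183 (OA) counts, and was the well-counted gene of the 10 with the largest ratios to control. These ratios were 3.43 for YA (2.66 to 4.48) and 2.79 for OA (2.13 to 3.69). Between YA and OA the ratio was 1.23 (1.01 to 1.49), which does not exceed 1.2-fold beyond counting error. LPL itself had 353 (control), 583 (YA) and 30 (OA) counts, and the secretomes thus stood on opposite sides of control, with ratios of 1.66 for YA (1.45 to 1.90) and 0.101 for OA (0.0673 to 0.147). ANGPTL4 took 18.1% of the reads of this pair for control (14.7 to 22.0), 31.4% for YA (28.4 to 34.6) and 85.9% for OA (80.6 to 90.0). Of the other angiopoietin-like genes ANGPTL2 alone was well counted, with 672, 459 and 612 counts, and it was lower in YA (ratio 0.685, 0.607 to 0.773).

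CPT1A (ENSG00000110090.12; chromosome 11, 68754620 to 68844410) attaches fatty acids to carnitine for entry into mitochondria and is the usual point of control of beta-oxidation. Its normalised counts were 2086 (control), 2084 (YA) and 1591 (OA), so control and YA lay together and OA lay below both, at 0.762 of control (0.713 to 0.815). The ratio of YA to OA was 1.31 (1.23 to 1.40). CPT2, which reverses the reaction inside the mitochondrion, had 346, 342 and 303 counts, and CPT1A made up 86.5% of the reads of the pair for control (85.1 to 87.8), 86.6% for YA (85.2 to 87.8) and 82.4% for OA (80.5 to 84.1). Among its isoenzymes CPT1B was at 1, 3 and 0 counts, and CPT1C, a form with little transferase activity, had 37, 51 and 59, with a ratio to control of 1.90 in OA (1.24 to 2.95). Of 6503 distinct 50-base stretches of CPT1A transcripts, 2.86% also occur in transcripts of other genes.

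ACADVL (ENSG00000072778.19; chromosome 17, 7217125 to 7225273) was the steadiest of the well-counted genes. It had 8258, 8572 and 7757 counts, and its normalised counts were 7781 (control), 8102 (YA) and 8707 (OA). The ratio to control was 1.04 for YA (1.01 to 1.07) and 1.12 for OA (1.08 to 1.15), both within 1.2-fold. ACADM, the enzyme for chains of medium length, had 1629, 1321 and 1114 counts, so that ACADVL reads per ACADM read were 5.07 (control), 6.49 (YA) and 6.96 (OA). Exons of DLG4 on the opposite strand overlap 85 of its exon bases.

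PDK4 (ENSG00000004799.7; chromosome 7, 95583499 to 95596491) phosphorylates and thereby shuts the pyruvate dehydrogenase complex, which spares glucose when fatty acids are burned. It had 949 (control), 1211 (YA) and 449 (OA) counts. YA was above control and OA below it, with ratios of 1.28 (1.17 to 1.39) and 0.564 (0.503 to 0.631), and the ratio of YA to OA, at 2.27 (2.04 to 2.54), was the largest of the well-counted genes. The other kinases of the complex lay within 1.2-fold of control, where PDK1 had ratios to control of 0.938 in YA and 0.905 in OA, PDK2 of 0.983 and 0.985, and PDK3 of 0.944 and 1.00. PDK4 took 37.8% of the reads of the 4 kinases for control (35.9 to 39.7), 44.9% for YA (43.1 to 46.8) and 26.6% for OA (24.6 to 28.8). PDP1, a phosphatase that reopens the complex, had 5621, 3863 and 3622 counts and was lower in both secretomes, with ratios of 0.689 (0.661 to 0.718) and 0.768 (0.736 to 0.800). PDP1 was the exception among 11 further genes of the complex and its regulators, since the other 10 were within 1.2-fold of control in both secretomes.

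**Figure D3:**
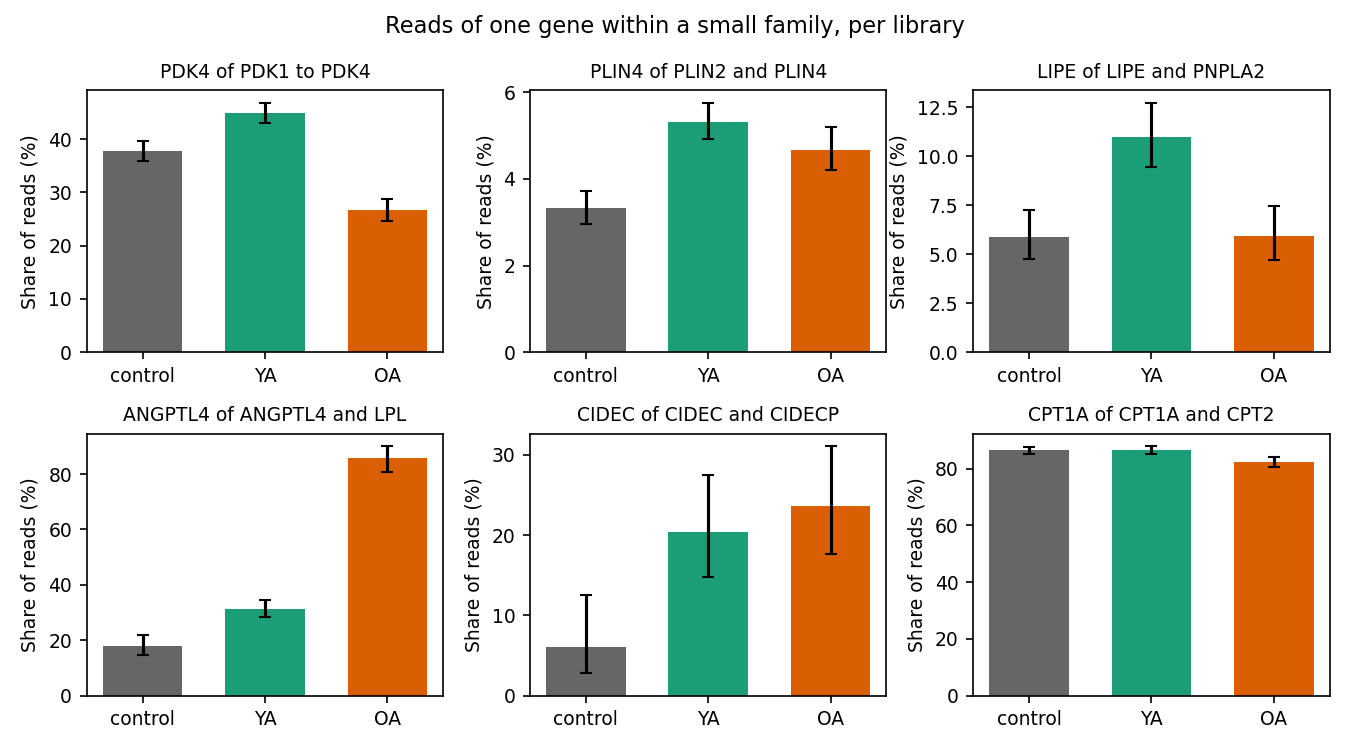
Share of reads (bars, vertical axis in %, from 0) that one gene took within a pair or small group of genes in the control, YA and OA libraries. Error bars give the 95% Wilson interval. The genes set together are not all of the same family, and a share depends on every gene in its group. PDK4 runs from 26.6% in OA to 44.9% in YA, LIPE is highest in YA, and ANGPTL4 takes 85.9% of its pair with LPL in OA, where LPL had 30 counts.

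The levels per length set these genes among their relatives. Per kb, PLIN2 was the most abundant perilipin and PDK4 the most abundant of the 4 kinases in every library, with PDK4 at 112 per kb in OA against 86.8 for PDK2. That order depends on the exon lengths used, since PDK1 had more reads in OA (628 against 449 counts for PDK4). The exons of PDK1 span 14883 bases and those of PDK4 4519. LIPE was far below PNPLA2, which had 311 per kb in control, 305 in YA and 311 in OA. FABP4 was below FABP3, FABP5 and FABP7 in each library.

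**Figure D4:**
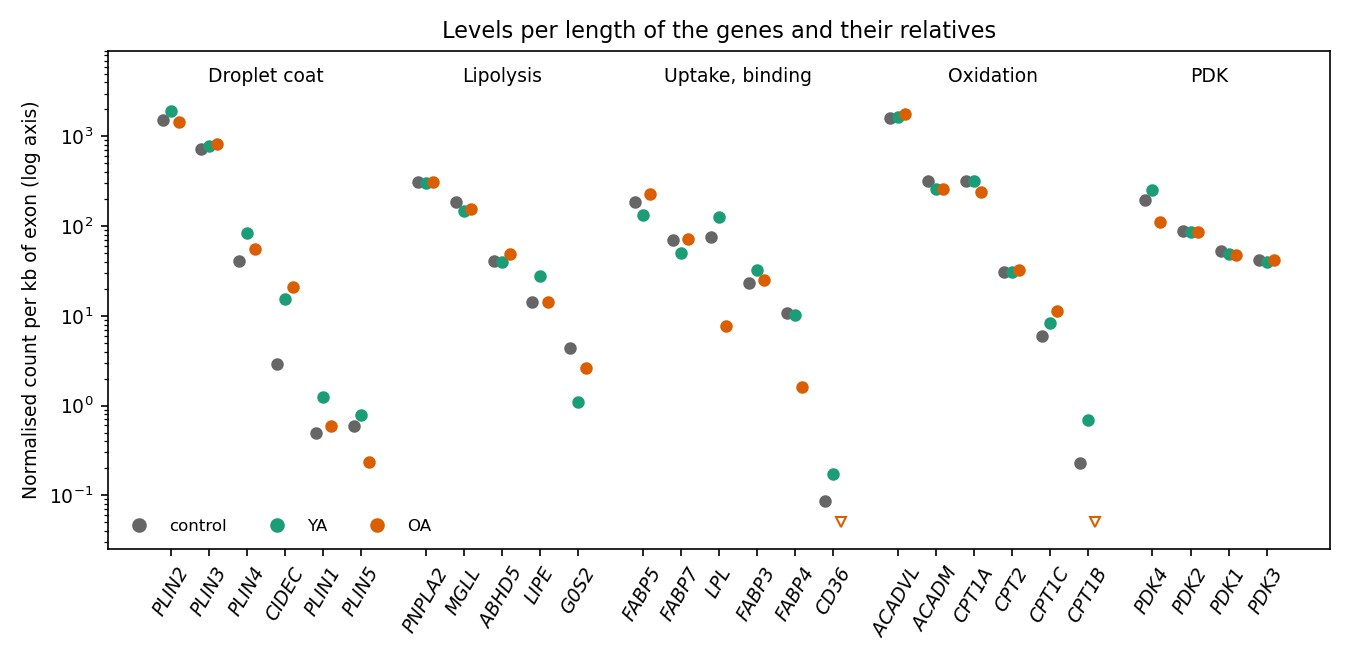
Normalised count per kb of exon (vertical log axis) of the genes and their relatives, grouped by role, with 1 point for each library and open triangles at the lower edge for 0 counts. Most genes keep their level within a role, apart from LPL, at 75.9 per kb in control and 7.68 in OA, and FABP4 and CIDEC, which differ most in the lower part.

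The wider pathway was described by lists of genes written from textbook knowledge, but with earlier results of these data known. Counts from these lists therefore describe these libraries and are not independent support. Beside every list stand the shares over all genes, 17.4% higher and 16.4% lower in YA, and 21.1% and 21.5% in OA. Of 24 genes of mitochondrial fatty acid oxidation beside CPT1A and ACADVL, 21 were tested, and 3 were higher and 1 lower in YA, with 2 higher and 3 lower in OA. Their median log2 fold was 0.01 in YA and -0.05 in OA, beside -0.02 and 0.01 over all genes tested. Among 10 further lipases and cofactors of lipolysis, 2 were higher and 1 lower in YA, and 0 were higher and 4 lower in OA, with medians of -0.07 and -0.22. PNPLA3, a droplet lipase, had 310, 433 and 166 counts, higher in YA (1.40, 1.21 to 1.63) and lower in OA (0.638, 0.525 to 0.773), and PNPLA7 was higher in YA (1.69, 1.23 to 2.32). LIPA, the lysosomal acid lipase, had 1714, 1539 and 905 counts and was lower in OA (0.629, 0.580 to 0.682). MGLL, which completes lipolysis, was at 0.803 of control in YA and 0.840 in OA.

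Of 19 further droplet genes 12 were tested, with 2 higher and 2 lower in YA and 1 higher and 4 lower in OA, and medians of 0.02 and -0.16. The shares over all genes were again 17.4% and 16.4% in YA and 21.1% and 21.5% in OA. METTL7A, a droplet-associated methyltransferase, had 153, 279 and 85 counts, with a ratio to control of 1.83 in YA (1.50 to 2.24). TMEM159, a partner of seipin in droplet formation, was higher in OA (1.92, 1.27 to 2.95), and ACSL3, which activates fatty acids on growing droplets, was lower in OA (0.778, 0.756 to 0.800). HILPDA, a droplet protein that inhibits PNPLA2, was at 0.719 of control in YA (0.606 to 0.853) and 0.967 in OA. Of 25 genes of fatty acid uptake and binding 15 were tested, with 6 higher and 3 lower in YA and 4 higher and 1 lower in OA, and medians of 0.23 and 0.00. The transporter SLC27A6 had 5, 19 and 46 counts, and the lipoprotein receptor VLDLR 131, 193 and 218, with a ratio to control of 1.98 in OA (1.59 to 2.48). SLC27A6 reached the minimum through its OA count, so that its place among the higher genes is tied to that difference.

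Other genes that PPARs are known to induce gave a mixed picture. The list held 41 such genes beside the 10, of which 28 also stand on another of the lists, and 29 were tested. Of these, 10 were higher and 4 lower in YA, 3 higher and 7 lower in OA, and 14 higher and 3 lower in YA against OA. The shares over all genes were 17.4% and 16.4%, 21.1% and 21.5%, and 23.0% and 21.5%, in the same order. The medians were 0.07, -0.05 and 0.20, beside -0.02, 0.01 and -0.01 over all genes. LPL and TXNIP were the genes of this list furthest above control in YA, where TXNIP, which restrains glucose uptake, had a ratio of 2.58 (2.36 to 2.81), and in OA it stood at 1.58 (1.44 to 1.75). FADS2, a fatty acid desaturase, was lower in OA (0.672, 0.606 to 0.746). The remaining 12 did not reach the minimum, among them FGF21, with 0, 2 and 1 counts.

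The receptors themselves were present. PPARG, the receptor of adipocytes, had 1608 (control), 1964 (YA) and 1530 (OA) counts, with ratios to control of 1.23 (1.15 to 1.31) and 1.13 (1.06 to 1.22). PPARD, which is found in most tissues, had 433, 507 and 539 counts, and its ratio was 1.17 in YA and 1.48 in OA (1.30 to 1.69). PPARA, the receptor of oxidative tissues, had 490, 397 and 270, with ratios of 0.813 (0.710 to 0.930) and 0.656 (0.564 to 0.763). Per kb of exon, PPARG stood above both others in every library, at 334 in control against 91.5 for PPARD and 34.9 for PPARA. Of their partners, RXRA (754, 665 and 682 counts) and RXRB (669, 793 and 732) were within 1.2-fold of control except for RXRB in OA, at 1.30 (1.17 to 1.45), while RXRG was far below control in OA, with 708, 487 and 16 counts. The coactivator PPARGC1A had 16, 22 and 55 counts and PPARGC1B 157, 244 and 310, and their ratios in OA were 4.09 (2.31 to 7.66) and 2.35 (1.94 to 2.87). PPARGC1A reached the minimum through its OA count, so that its place among the higher genes in OA is tied to that difference. Across the 20 receptors and coregulators 6 were higher and 3 lower in YA, and 6 were higher and 2 lower in OA, with medians of 0.14 and 0.08. Over all genes, 17.4% were higher and 16.4% lower in YA, and 21.1% and 21.5% in OA.

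**Figure D5:**
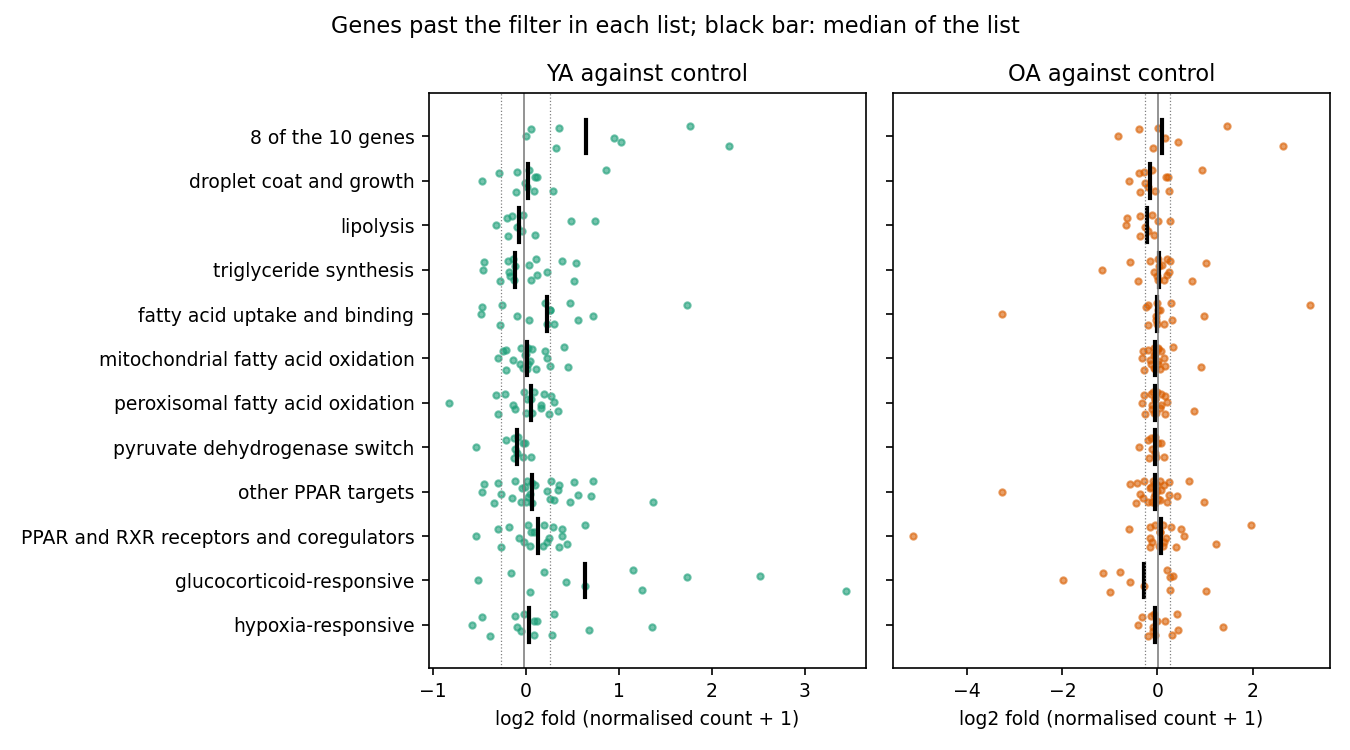
Log2 fold against control (horizontal axis, normalised count + 1) of each gene past the minimum in 12 lists, for YA on the left and OA on the right, with a black bar at the median of the list, a grey line at the median of all genes and dotted lines at 1.2-fold. In YA the glucocorticoid-responsive genes and the genes described here reach furthest to the right. For the genes described here that point is CIDEC, which reached the minimum through the secretome libraries alone, so its place does not set them apart. In OA the lowest points are RXRG and LPL, and the horizontal scales differ.

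Genes that respond to glucocorticoids or hypoxia were counted beside these values. For both lists, the shares over all genes were 17.4% higher and 16.4% lower in YA, and 21.1% and 21.5% in OA. Of 11 glucocorticoid-responsive genes tested, 7 were higher and 1 lower in YA and 3 were higher and 6 lower in OA, with medians of 0.64 and -0.28, and their summed reads were 912, 1307 and 882 per 1000000 counts in control, YA and OA. TSC22D3 and PER1, the furthest above control in YA, had ratios of 11.0 and 5.75 there. None of the 10 genes is on that list, although ANGPTL4 and PDK4 are also known to respond to glucocorticoids, and the part of this response in the values above was not tested. Among 14 hypoxia-responsive genes tested, 4 were higher and 3 lower in YA and 4 higher and 2 lower in OA, with medians of 0.03 and -0.06; CA9 was the furthest above control, at 2.60 (1.82 to 3.77) and 2.63 (1.82 to 3.84), and its part was not tested either.

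Markers of the cells that made the secretome were examined because CIDEC, LIPE, FABP4 and PLIN4 are adipocyte genes. Of 17 adipocyte markers, 9, 8 and 10 had at most 3 counts in control, YA and OA, among them ADIPOQ (1, 0 and 0 counts) and LEP (0 in each). Summed reads of the 17 markers, mostly of PPARG and LPL, were 98.1, 128 and 93.2 per 1000000 counts in control, YA and OA, and without those genes 6.71, 8.495 and 6.97. Of the 5 that could be tested, 5 were higher in YA, and 2 were higher and 1 lower in OA, beside the shares of all genes given above (17.4% higher in YA, 21.1% higher and 21.5% lower in OA). With the interval wholly beyond 1.2-fold, RBP4 and LPL were higher in YA and LPL was lower in OA. Of 13 fibroblast and preadipocyte markers, whose sums were 41.6, 52.1 and 33.8 per 1000000 counts, 3 of 6 tested were higher and 1 lower in YA, with 2 higher and 3 lower in OA. Over all genes, 17.4% were higher and 16.4% lower in YA, and 21.1% and 21.5% in OA. With the interval wholly beyond 1.2-fold, DCN was higher and PDGFRA lower in YA, and FBLN1 was lower in OA. Beside both marker lists, that interval rule held for 6.03% of all genes higher and 4.44% lower in YA, and for 9.04% and 9.08% in OA. DCN had 13, 138 and 24 counts and reached the minimum largely through YA, while COL1A2 (1, 1 and 2 counts) and COL3A1 (0, 1 and 1) were near 0. The part of the adipocyte and fibroblast markers in the values above was not tested. In such bulk libraries, more cells of a type and more RNA per cell cannot be told apart.

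The libraries held 18089008 to 21448195 counts. Of 13 melanocytic markers, S100B, MITF, EDNRB and TFAP2A were well counted (S100B had 550 to 843 counts), whereas SOX10 was listed at 0 and TYR at 0 to 2 counts in all libraries. Their summed reads were 237, 184 and 161 per 1000000 counts in control, YA and OA. Of 6 tested, 1 was higher and 3 lower in YA, and 0 were higher and 3 lower in OA, with medians of -0.34 and -0.29, and the part of this in the values above was not tested. Among all genes, 17.4% were higher and 16.4% lower in YA, and 21.1% and 21.5% in OA. Overlap with exons of other genes touched 9.60% of exon bases for LIPE, 1.75% for ACADVL, 0.492% for PLIN4 and 0.0403% for ANGPTL4, and none for the remaining 6 genes.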

How the data were processed

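Poly(A) RNA libraries of A375 (Agilent SureSelect, Illumina NovaSeq) were represented by the raw counts per gene that the authors deposited, as whole numbers, in 1 column for each group. The submitters' processing notes name hg38, STAR 2.5.1b, featureCounts and R 3.6.1. The annotation release and the use of strand are not given in the sources used here. The series' design text gives an exposure of 24 h, and the treatment protocol a range that begins there.

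Size factors came from DESeq2 1.42.0 in R 4.3.3, and were followed by steps in Python 3.11.15 (scipy 1.17.1, numpy 2.4.6, matplotlib 3.10.9, pandas 2.3.3). They were 1.06 (control), 1.06 (YA) and 0.891 (OA). Genes were tested from a mean normalised count of 20, calls used log2((a + 1)/(b + 1)) with a pseudocount of 1, and printed ratios carry none. Ratios have Clopper-Pearson and counts exact Poisson intervals at 95%, with a floor of 3 counts. Reads were amplified and carry no molecular identifiers, so they are not independent molecules. The procedure was tested on simulated data.

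With 1 library per group, edgeR's quasi-likelihood test could not be run. The 10 genes and the 15 further lists were chosen with earlier results of these data known. Named genes were the 10, a fixed set of relatives and, for each list, up to 2 genes in each direction whose interval lay wholly beyond 1.2-fold. Not all of these are named, and FGF21, FABP6, CIDECP, ACADM, COL1A2, COL3A1, LEP, ADIPOQ, S100B, MITF, EDNRB, TFAP2A, SOX10 and TYR were named after their values were seen. Positions and exon lengths came from GENCODE release 29 (GRCh38), matched for 57433 of 58037 identifiers, and start regions from RefSeq. Alternatives were edgeR 4.0.16 TMM and total-count scaling, other filters, a pseudocount of 5 and other thresholds.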

Additional observations from a re-analysis of the deposited data

Results flagged for a closer look

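PLIN2 and PDK4 were the genes of the 10 whose counting intervals lay on opposite sides of control in the 2 secretomes. The log2 fold of PLIN2 was 0.32 in YA and -0.08 in OA, and the second value is within 1.2-fold. The log2 fold of PDK4 was 0.36 in YA and -0.83 in OA. Each group had 1 library and both values share the control library, so the difference between the secretomes was not tested beyond counting error.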

How the results depend on the processing

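TMM and total-count scaling moved no log2 fold of the 10 genes by more than 0.0135, and a pseudocount of 5 left every fold within its counting interval. For FABP4, which has too few counts for a fold change, that pseudocount took the log2 value from -2.31 to -1.47 in OA over control and from 2.23 to 1.40 in YA over OA. The counts of the 10 genes at least 1.2-fold higher or lower kept within 1.5 times their value in 35 cases and moved in 7. With no filter, 4 genes were lower in OA over control, where CD36 and FABP4 enter, both with too few counts for a fold change. With a minimum mean of 100, 0 were lower in YA over OA. At 2-fold, 3 were higher in YA over control, 0 lower in OA over control, and 1 higher and 0 lower in YA over OA. With the interval wholly beyond 1.2-fold, 0 were lower in YA over OA. For the 172 tested list genes beside the 10, the main counts were 45 higher and 26 lower in YA over control, 30 and 38 in OA over control, and 54 and 30 in YA over OA. The shares over all genes were 17.4% and 16.4%, 21.1% and 21.5%, and 23.0% and 21.5%, in the same order. With no filter, 68 were higher and 46 lower in YA over control, and 62 lower in OA over control. With a minimum mean of 100, 29 were higher in YA over control. In the same order, the counts at 2-fold were 10 and 1, 7 and 7, then 16 and 5, and those with the interval wholly beyond 1.2-fold were 23 and 10, 17 and 19, then 30 and 15. Over all genes, the shares at 2-fold were 2.15% and 0.971%, 2.86% and 3.71%, then 4.43% and 3.04%. With the interval rule they were 6.03% and 4.44%, 9.04% and 9.08%, then 10.02% and 9.03%. All these shares stand beside the counts of the 10 genes as well, and no shares were taken under the other filters. The shifts in the counts follow from how many genes a filter admits and how strict a threshold is. Summing CIDEC with CIDECP moved the log2 folds against control below the counting intervals of CIDEC alone, to 0.60 in YA and 0.85 in OA. That sum is mostly CIDECP reads in every library, so it does not test the fold of CIDEC itself. No paired analysis was possible because each group has 1 library, and for the same reason no library could be left out. Depth limits FABP4, CD36 and CIDEC most.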

Other observations

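Of 22 triglyceride synthesis genes 17 were tested, with 3 higher and 3 lower in YA against control, 3 higher and 3 lower in OA, and 4 higher and 5 lower between YA and OA. These counts lie near the shares over all genes (17.4% and 16.4%, 21.1% and 21.5%, 23.0% and 21.5%), and single enzymes are given as values only. The medians were -0.12, 0.04 and -0.06. GPAT3, which adds the first fatty acid to glycerol phosphate, had 2536 (control), 2964 (YA) and 4337 (OA) counts, a ratio of 2.04 in OA (1.94 to 2.14). DGAT2, which adds the last one, had 116, 84 and 162 counts and a ratio of 1.66 in OA (1.30 to 2.13). The phosphatidate phosphatases LPIN1 and LPIN3, which act between them, were lower in OA, at 0.672 (0.627 to 0.719) and 0.439 (0.289 to 0.653) of control. ACSL1, which activates fatty acids, was higher in YA (1.43, 1.29 to 1.59).

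In peroxisomes, which shorten very long and branched fatty acids, 3 of 19 genes tested were higher and 3 lower in YA, and 1 was higher and 3 lower in OA, with medians of 0.05 and -0.05. The shares over all genes were 17.4% and 16.4% in YA, and 21.1% and 21.5% in OA. AMACR, the racemase for branched chains, had 152 (control), 85 (YA) and 219 (OA) counts. Its ratio to control was 0.561 for YA (0.425 to 0.736) and 1.72 for OA (1.39 to 2.13).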
